A study of Mus musculus with 6 samples.

Results

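The 10 genes described here encode transcription factors and co-repressors that drive or block myelination by Schwann cells (SCs). They were chosen by symbol, as *Sox10*, *Egr2*, *Pou3f1*, *Pou3f2*, *Nab1*, *Nab2*, *Jun*, *Sox2*, *Id2* and *Id4*, from the 24062 genes counted by bulk RNA-seq, and all 10 were present. The choice was made with earlier results of these data known. Libraries of 6 mice were compared, 3 from Nf1fl/fl;DhhCre mice, a model of neurofibroma, and 3 from mice that are floxed for *Runx1* and *Runx3* as well. The second group is called labelled double knockout below, since its genotype label is Rx1flfl;Rx3fl/fl;DhhCre. The floxed *Nf1* alleles, which both groups carry, are given for it by the study's text and not by that label. Both groups are on a C57BL/6-I129 background, and no other treatment is given. Cre recombinase is expressed from the *Dhh* promoter, which is active in the SC lineage, so that cells without Cre keep intact copies of each floxed gene. Recombination in neurons, macrophages, fibroblasts and other cells of the tissue was not measured here. The tissue is labelled dorsal root ganglion (DRG) for the first group and neurofibroma tumor for the second. The study itself describes DRG/tumors for both in its methods and calls the Nf1fl/fl;DhhCre samples tumors elsewhere, so that the share of ganglion and tumor in each group is not settled, and such a difference and an effect of genotype cannot be told apart. The ages of the mice behind these libraries are not given in the sources used here. In bulk tissue, fewer cells of a type and less RNA per cell cannot be told apart.

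As background, SOX10 is needed through the whole SC lineage and, together with the POU factors encoded by *Pou3f1* (Oct6) and *Pou3f2* (Brn2), turns on *Egr2* (Krox20) as an SC begins to myelinate. EGR2 then keeps the genes of myelin proteins and lipids on, acting with SOX10 at many of them and with the co-repressors NAB1 and NAB2. The proteins encoded by *Jun*, *Sox2*, *Id2* and *Id4* are known as blockers. They are high in immature or injured SCs and oppose EGR2, the ID proteins by binding other helix-loop-helix proteins and keeping them off DNA.

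Total counts were between 12439296 and 16682194 per library, and 3 counts, the floor used here for detection, made 0.18 to 0.241 CPM (counts scaled to a common library total). This floor covers counting error only, while the 95% intervals given with fold changes come from limma-voom and include the spread between libraries. Within a group, the chi-square between libraries was at least 22.75 times its degrees of freedom, and no library repeated another. Of the libraries labelled double knockout, 1 (replicate 2 or 3) came from another run, and which of them is not settled. The targeted gene *Runx1* was at 131, 141 and 172 CPM in Nf1fl/fl;DhhCre, against 84.0, 78.9 and 185 CPM in those labelled double knockout, whose replicate 3 was thus the highest of the 6. *Runx3* was at 19.9, 15.1 and 29.9 against 13.5, 10.3 and 12.1 CPM. *Nf1*, floxed in both groups, was between 263 and 342 CPM in all 6. Markers of cells other than SCs differed between the groups too, beside 11.1% of all genes tested that rose and 8.22% that fell. Of 22 sensory neuron markers, led by *Nefl* and *Snap25*, 21 rose, and their summed level was 1974 to 3451 CPM in Nf1fl/fl;DhhCre and 7630 to 16186 CPM in the libraries labelled double knockout. Of 12 macrophage markers, led by *Itgam* and *Lyz2*, 10 fell (1233 to 2312 against 219 to 519 CPM), and of 9 fibroblast markers, led by *Dcn* and *Col1a2*, 6 fell (9214 to 9884 against 3440 to 5666 CPM). A set of 6 SC genes outside the members, led by *Gpm6b* and *Cdh19*, summed to 1179 to 1373 and 1150 to 1562 CPM, and 1 of them, *S100b*, rose (log2 fold change 1.52). Skeletal muscle markers, led by *Myh4* and *Myh1*, were highest in replicate 2 of each group, at 2583 and 10949 CPM, and between 7.63 and 65.4 CPM in the other libraries. Glia of the central nervous system and melanocytes also use *Sox10*. Of 5 melanocyte markers, *Dct*, *Tyrp1* and *Mlana* had at most 11 counts in any library, while *Tyr* had 789 to 1343 and *Pmel* 27 to 99, and the summed level was 85.7 to 88.9 CPM in Nf1fl/fl;DhhCre and 68.2 to 81.7 CPM in the other group. Of 8 markers of central glia, *Mog*, *Opalin* and *Olig2* had at most 5 counts, while *Aqp4* had up to 336 and *Aldh1l1* up to 169, and the sums were 34.0 to 52.1 and 28.1 to 49.8 CPM. The only tested gene of the melanocyte and central glia lists to pass was *Gfap*, which fell. Satellite glia, which wrap the neurons of the ganglion, also express *Sox10*. Of 9 of their markers, led by *Glul* and *Cdh19*, *Fabp7* (log2 fold change 1.87) and *Hmgcs1* (1.35) rose, *Kcnj10* (-1.25) fell and 6 did not pass, and the sums were 1342 to 1760 CPM in Nf1fl/fl;DhhCre and 1333 to 1889 CPM in the other group. The part of these other cells in the results on the members was not tested.

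*Id4* rose and *Jun* and *Id2* fell in the libraries labelled double knockout, and the other 7 members did not pass the test. All 10 passed the filter on low counts, which left 15652 genes. A gene passed the test at an adjusted p below 0.05 in limma-voom, by the Benjamini-Hochberg method over those genes. The 3 members called stand beside 19.3% of all genes tested (11.1% higher and 8.22% lower). Both counts depended on the libraries kept. Without Nf1fl/fl;DhhCre replicate 1 no member and 383 genes passed, against 3017 with all libraries, and without replicate 3 of that group no member and 1203 genes. Without replicate 1, 2 or 3 labelled double knockout 1 member, *Id4*, passed each time, with 2463, 1192 and 2032 genes in all. With a change of more than 2-fold required as well, which defines a differentially expressed gene (DEG) here, 2 members remained, *Id2* and *Id4*, beside 13.4% of all genes (8.03% higher and 5.36% lower). In 5 members no library of one group overlapped the other, *Id4* above and *Nab1*, *Nab2*, *Jun* and *Id2* below, beside 42.3% of all genes (21.8% above and 20.5% below). The median log2 fold change was -0.35 over the 10 members, 3 of them higher and 7 lower, and 0.02 over all genes tested. The labels do not say how the mice of a group are related, and the p-values measure the spread between these 3 libraries a group.

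**Figure D1:**
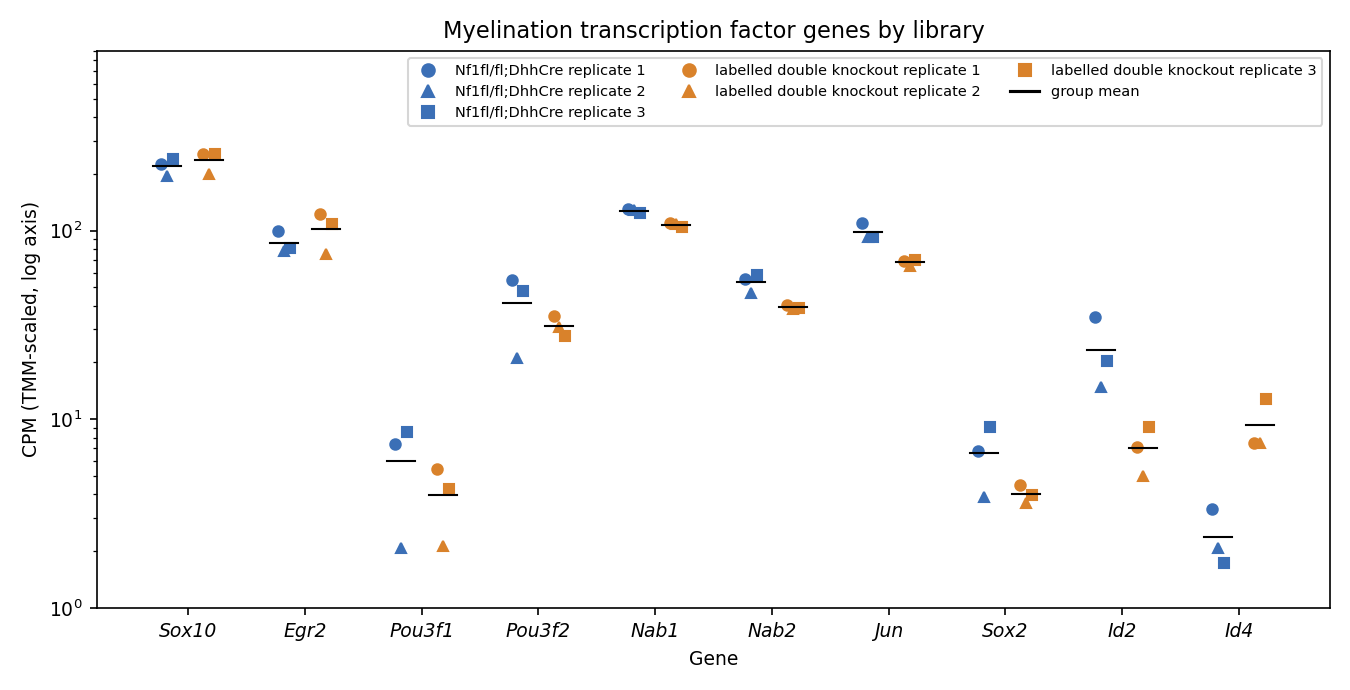
Level of each of the 10 genes in each library, in CPM after TMM scaling on a log axis. Blue symbols are the 3 Nf1fl/fl;DhhCre libraries, orange symbols the 3 labelled double knockout, the symbol shape gives the replicate number, which does not pair mice, and black lines are group means. The groups are apart for *Id4*, *Id2*, *Jun*, *Nab2* and *Nab1* and overlap for the other 5 genes.

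*Sox10*, the lineage factor, lies on the minus strand at chr15:79154908-79165240 (GRCm38) and was the member with the most reads, from 2432 to 3878 counts per library. It was at 227, 195 and 241 CPM in Nf1fl/fl;DhhCre, against 254, 200 and 256 CPM in those labelled double knockout. The groups overlapped, with replicate 2 the lowest of each. The log2 fold change of 0.10 (SE 0.15, limma-voom adjusted p = 0.677) had a 95% interval from 0.84-fold to 1.36-fold, so that a change of *Sox10* as large as 2-fold in either direction lay outside it. Leaving out 1 library gave 0.04 to 0.22, without a call. The genes whose levels followed *Sox10* most closely were *Sap130*, *Mtpn* and *Wbp11*, with a Euclidean distance of 0.0976 to 0.119 between log2 CPM profiles centred over the 6 libraries, out of 10221 genes compared.

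*Egr2*, the factor that starts and keeps the myelin programme, lies at chr10:67535475-67542188 on the plus strand. It was at 99.5, 77.6 and 81.2 CPM in Nf1fl/fl;DhhCre, against 123, 75.3 and 108 CPM in those labelled double knockout. Replicates 1 and 3 labelled double knockout were the highest of the 6 and replicate 2 was the lowest, so that the groups overlapped. The interval of the change ran from 0.84-fold to 1.63-fold (log2 fold change 0.23, SE 0.20, limma-voom adjusted p = 0.467). The 6 leave-one-out fits gave from 0.13, without replicate 1 labelled double knockout, to 0.43, without replicate 2 of that group, and none passed (limma-voom adjusted p from 0.154 to 0.672). Without replicate 2 of both groups, the libraries with the most muscle marker reads, a setting chosen after the data were seen, the change was 0.37, and with sample quality weights it was 0.14. *Myo7a*, *Cmtm5* and *Rras2* had the profiles nearest to *Egr2*, at distances of 0.178 to 0.209.

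The POU factor genes were the least settled of the drivers. *Pou3f1*, a gene of 1 exon at chr4:124656807-124660655 on the plus strand, was at 7.42, 2.09 and 8.53 CPM in Nf1fl/fl;DhhCre, against 5.42, 2.14 and 4.29 CPM in those labelled double knockout, from 133 down to 26 counts. The antisense transcript Gm2164 covers 8.6% of the exonic length of *Pou3f1*. Replicate 2 was the lowest in both groups. The 95% interval of its log2 fold change, -1.93 to 1.11, held a decrease and an increase of more than 2-fold (estimate -0.41, SE 0.65, limma-voom adjusted p = 0.691). *Pou3f2*, also of 1 exon, at chr4:22482780-22488366 on the minus strand, was at 54.7, 21 and 47.9 CPM against 35.5, 30.7 and 27.7 CPM. Only Nf1fl/fl;DhhCre replicate 2 lay below the libraries labelled double knockout. The *Pou3f2* change was -0.28 (SE 0.36, limma-voom adjusted p = 0.623) with all libraries. It was -0.68 (limma-voom adjusted p = 0.0448) without that replicate, -0.70 (limma-voom adjusted p = 0.0874) without replicate 2 of both groups, and -0.08 (limma-voom adjusted p = 0.922) without replicate 3 of Nf1fl/fl;DhhCre. Without replicate 1 of that group it was -0.000122 (limma-voom adjusted p = 0.9999), so that the value rests on which of its libraries are kept. The ratio of *Pou3f2* to *Pou3f1* counts within a library ran from 5.62 to 14.3 over the 6 libraries and did not differ beyond its spread between the groups (exact permutation p = 0.7).

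*Nab1* and *Nab2*, the co-repressors that bind EGR proteins, were both lower in each library labelled double knockout than in any Nf1fl/fl;DhhCre library, and neither passed the test. *Nab1*, at chr1:52457294-52500679 on the minus strand, was the steadiest member. It was at 131, 129 and 124 CPM in Nf1fl/fl;DhhCre, against 109, 109 and 105 CPM in those labelled double knockout, means of 128 ± 3.72 and 108 ± 2.64 CPM (SD, n = 3 each). The change on the log2 scale was -0.25 (SE 0.11, 95% interval -0.50 to 0.00, limma-voom adjusted p = 0.143). *Nab2*, at chr10:127660918-127668568 on the minus strand, was at 55.6, 46.9 and 58.5 CPM against 40.4, 38.5 and 38.7 CPM. Its change of -0.44 (SE 0.14, limma-voom adjusted p = 0.0687) passed in other tests with all 6 libraries, with adjusted p = 0.022 from DESeq2 and 0.0354 from limma-voom with sample quality weights. An antisense transcript, Gm16229, covers 35.7% of the exonic length of *Nab2*. Gm16229 is not among the genes counted under that name. Whether the counting used strand is not stated, and without strand the reads of both cannot be told apart.

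EGR proteins bind GC-rich sequences, and the promoter of *Nab1* holds 3 matches to the EGR element GCGNGGGCG, where N is any base. Promoters were taken from RefSeq (GRCm38.p6) as the 300 bases around a start, most of them upstream, read on both strands, for 8 members that matched by symbol (all but *Sox10* and *Pou3f1*). The element is present in 5.55% of 32851 promoters and in 3 members, *Nab1*, *Pou3f2* and *Id4*. The 3 *Nab1* matches are shown because 3 in a 300-base window was the most of any member. Each line gives 30 bases 5′ to 3′ on the strand of the gene, with the element, or its reverse complement in the first, in capitals.
Nab1, 141 bases before the start, chr1:52500570-52500599: gccccgcggcCGCCCACGCcgggatctgcg
Nab1, 109 bases before the start, chr1:52500538-52500567: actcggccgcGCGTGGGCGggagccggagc
Nab1, 38 bases before the start, chr1:52500467-52500496: gcggggcgggGCGGGGGCGgcggaggtggc
A match describes these letters only and is not a measured site.

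*Jun*, whose protein opposes EGR2 and drives the repair state of injured SCs, fell. It is a gene of 1 exon at chr4:95049034-95052222 on the minus strand, 7.3% of which is also covered by the antisense transcript Junos. *Jun* was at 109, 92.9 and 92.1 CPM in Nf1fl/fl;DhhCre, against 69.4, 65.0 and 69.9 CPM in those labelled double knockout. Every library labelled double knockout lay below every Nf1fl/fl;DhhCre library. The means were 98.1 ± 9.70 and 68.1 ± 2.68 CPM (SD, n = 3 each), a 1.43-fold decrease (log2 fold change -0.52, SE 0.13, limma-voom adjusted p = 0.0324). The change stayed between -0.54 and -0.41 in the 6 leave-one-out fits, and passed only without Nf1fl/fl;DhhCre replicate 2, with adjusted p-values from 0.0483 to 0.118 from limma-voom. Without replicate 3 labelled double knockout, the library with high *Runx1*, it was -0.54 (limma-voom adjusted p = 0.0633).

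*Sox2*, which marks immature SCs and opposes myelination, was low throughout, at 44 to 142 counts. It lies at chr3:34650405-34652461 on the plus strand. *Sox2* was at 6.80, 3.87 and 9.11 CPM in Nf1fl/fl;DhhCre, against 4.46, 3.62 and 3.96 CPM in those labelled double knockout. The latter were close to each other, and Nf1fl/fl;DhhCre replicate 2 lay among them. Its log2 fold change was -0.61 (SE 0.39, 95% interval -1.54 to 0.31, limma-voom adjusted p = 0.311). It ran from -0.93 without Nf1fl/fl;DhhCre replicate 2 to -0.30 without replicate 3 of that group, and passed in none of the 6 leave-one-out fits (limma-voom adjusted p from 0.0753 to 0.625).

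*Id2* and *Id4* moved in opposite directions. *Id2*, at chr12:25093799-25097140 on the minus strand, was at 35, 14.8 and 20.3 CPM in Nf1fl/fl;DhhCre, against 7.09, 5.02 and 9.11 CPM in those labelled double knockout. The groups did not overlap, and Nf1fl/fl;DhhCre replicate 1 stood highest. *Id2* fell 3.09-fold (log2 fold change -1.63, SE 0.42, limma-voom adjusted p = 0.0371). Leaving out 1 library gave values from -1.87 to -1.27, and the call was kept only without Nf1fl/fl;DhhCre replicate 2 (adjusted p from 0.0168 to 0.116 over the 6 fits, from limma-voom). Without replicate 3 labelled double knockout it was -1.85 (limma-voom adjusted p = 0.0740).

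*Id4*, at chr13:48261228-48266026 on the plus strand, was at 3.33, 2.09 and 1.73 CPM in Nf1fl/fl;DhhCre, or 48, 35 and 27 counts. The libraries labelled double knockout had 7.49, 7.48 and 12.9 CPM, or 94, 91 and 195 counts. All 3 of the latter lay above the former, with replicate 3 the highest. *Id4* rose 3.99-fold (95% interval 2.07-fold to 7.71-fold, log2 fold change 2.0, SE 0.41, limma-voom adjusted p = 0.0194). The call held in 4 of the 6 leave-one-out fits and was lost without Nf1fl/fl;DhhCre replicate 1 (2.28, adjusted p = 0.0567) and without replicate 3 of that group (1.84, adjusted p = 0.0574, both from limma-voom). It was also lost without replicate 2 of both groups, a setting chosen after the data were seen (2.075, limma-voom adjusted p = 0.0509). Sensory neuron markers were also highest in replicate 3 labelled double knockout, at 16186 CPM in sum, and their part in the *Id4* result was not tested. Other ID genes did not pass. *Id3* was at 44.8 ± 14.1 and 35.3 ± 1.45 CPM and *Id1* at 1.69 ± 0.910 and 1.55 ± 0.207 CPM (SD, n = 3 each).

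RUNX proteins bind a core of TGTGG, and the promoters of the 3 members that were called, and that of *Nab2*, hold it. The core is so short that 55.9% of all promoters hold it, and 4 of the 8 matched members did. The longer form TGTGGT was in 16.8% of promoters and in none of the 8. The lines below show the matches of the members called, with the core in capitals, and a CRE-like element (TGACNTCA, in 8.83% of promoters) in *Jun*, which lies in no other of the 8 promoters.
Jun, 41 bases after the start, chr4:95052173-95052202: ggactcagagttgcactgagTGTGGcagag
Jun, CRE-like, 45 bases before the start, chr4:95052249-95052278: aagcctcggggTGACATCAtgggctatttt
Id2, 45 bases after the start, chr12:25096043-25096072: tgccgcgcagtcagctcagcccccTGTGGc
Id4, 80 bases before the start, chr13:48261024-48261053: gcgtccggttctTGTGGcgacccggcccgc
The RefSeq starts used for *Id2*, *Nab2* and *Nab1* lie 1048, 1865 and 231 bases inside the GENCODE gene spans given above, and that of *Id4* 112 bases before its span. *Nab2* holds the core on the opposite strand 216, 149 and 101 bases before its start. The AP-1 element TGANTCA was in 7.81% of promoters and in none of the 8, and the SOX element ACAAAG was in 18.7% and in 1, *Sox2*. No binding was measured in the files used here.

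**Figure D2:**
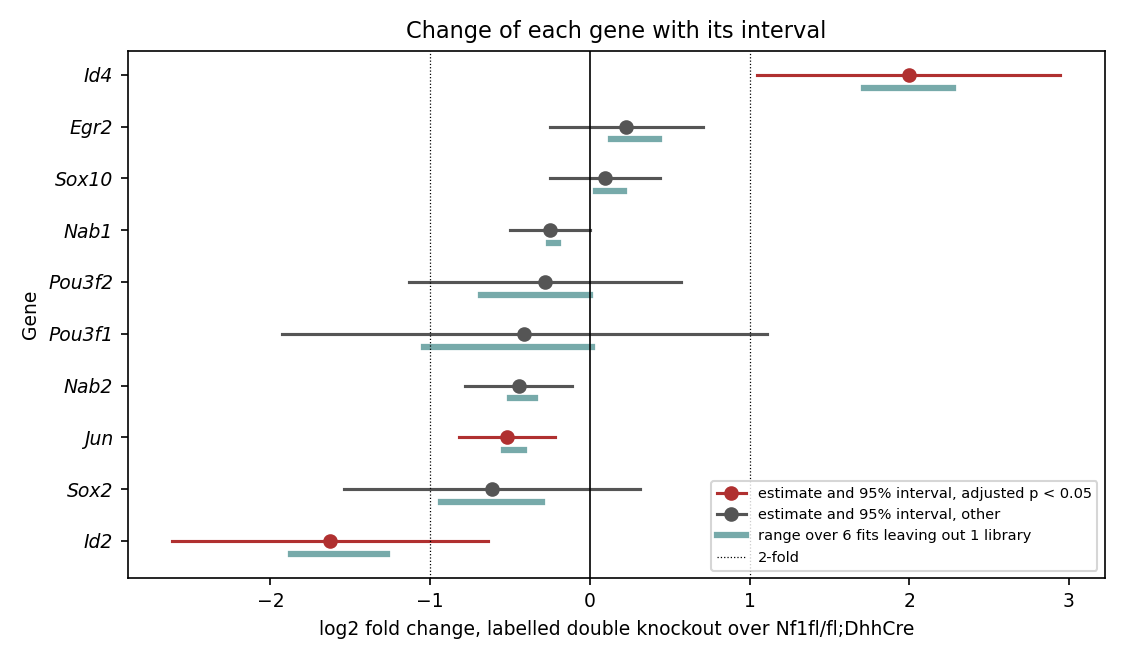
Log2 fold change of each gene, libraries labelled double knockout over Nf1fl/fl;DhhCre, with its 95% interval from limma-voom (points and thin lines, red where adjusted p was below 0.05) and the range over the 6 leave-one-out fits (thick lines). *Id4*, *Id2* and *Jun* are red, and the widest interval, from -1.93 to 1.11, is that of *Pou3f1*.

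Levels were compared between the genes only per length, as CPM per kb of exon. In Nf1fl/fl;DhhCre, *Sox10* was the highest at 72.4 ± 7.72 CPM per kb (SD, n = 3). *Nab1* at 31.2 ± 0.907, *Jun* at 30.8 ± 3.04 and *Egr2* at 25.3 ± 3.46 CPM per kb came next, and each overlapped its neighbour in this order. *Nab2* followed at 18.2 ± 2.05 CPM per kb, apart from *Egr2*, and from the next gene, *Id2*, at 9.58 ± 4.30. From *Id2* down to *Pou3f2*, *Sox2*, *Pou3f1* and *Id4*, every gene overlapped its neighbour, with *Id4* last at 0.619 ± 0.218 CPM per kb. In the libraries labelled double knockout *Sox10* was again first, at 77.6 ± 10.4 CPM per kb. *Egr2*, at 30.01 ± 7.12 CPM per kb, was second by its mean and overlapped *Nab1* at 26.2 ± 0.643, while *Jun*, at 21.4 ± 0.839, lay below every *Nab1* value. *Pou3f1* was last there, at 1.03 ± 0.433 CPM per kb, and *Id4*, at 2.41 ± 0.808, overlapped *Id2* at 2.90 ± 0.840 and *Sox2* at 1.95 ± 0.207.

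**Figure D3:**
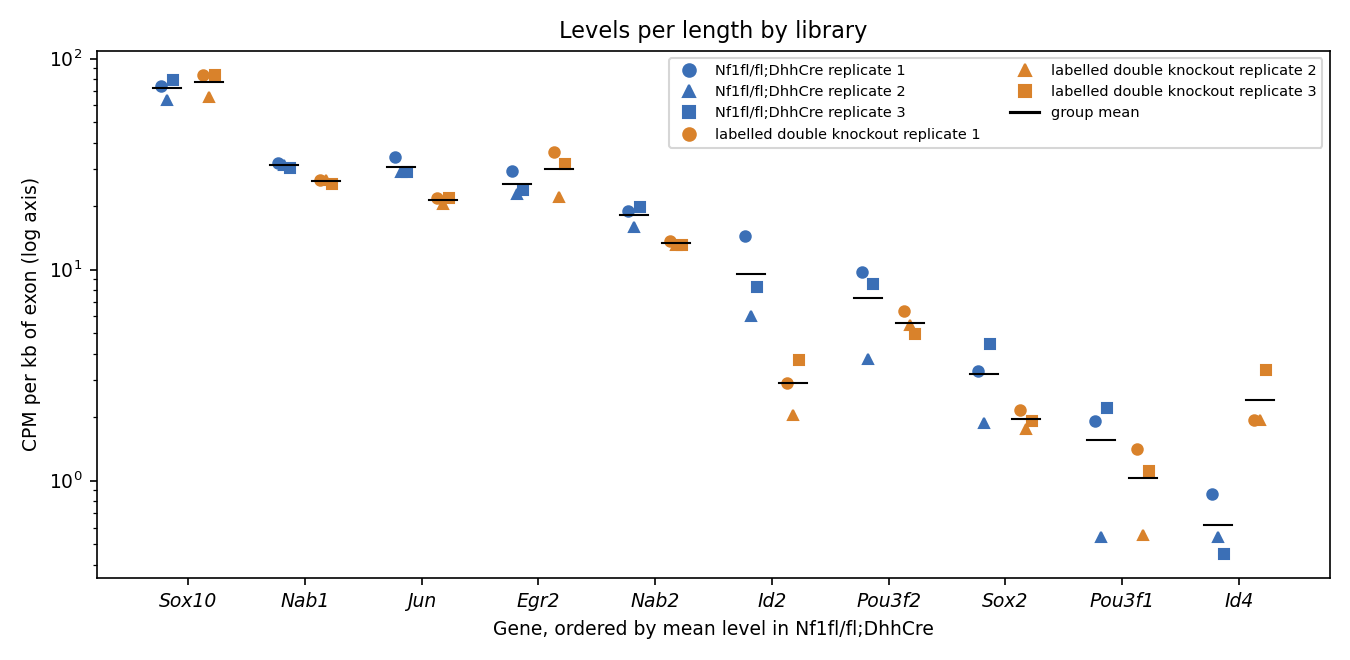
Level per length (CPM per kb of exon, log axis) of each gene in each library, in the order of the Nf1fl/fl;DhhCre means. Blue symbols are Nf1fl/fl;DhhCre, orange symbols the libraries labelled double knockout, and black lines are group means. *Id4*, at the right, is the lowest gene in Nf1fl/fl;DhhCre and is above *Pou3f1* in the other group.

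The balance between a driver and a blocker was also read as a ratio of counts within each library, which no scaling between libraries can move. A ratio of counts compares libraries, and which gene of a pair is higher was read per length. These ratios were chosen after the data were seen. With 3 libraries against 3, an exact two-sided permutation test cannot give a p below 0.1. The ratio of *Egr2* to *Jun* was 0.911, 0.835 and 0.882 in Nf1fl/fl;DhhCre and 1.77, 1.16 and 1.55 in the libraries labelled double knockout. This was a 1.68-fold difference (exact permutation p = 0.1), and per kb of exon too *Jun* lay above *Egr2* in each library of the first group and below it in each of the second. *Egr2* to *Nab2* was at 1.79, 1.66 and 1.39 against 3.03, 1.96 and 2.79, and *Egr2* to *Sox2* at 14.6, 20.05 and 8.92 against 27.5, 20.8 and 27.3, both without overlap (exact permutation p = 0.1). *Egr2* to *Nab1* (exact p = 0.2) and *Egr2* to *Sox10* (0.337 to 0.438 against 0.377 to 0.483, exact p = 0.5) overlapped. So did *Egr2* to *Pou3f1* (exact permutation p = 0.4) and *Nab2* to *Nab1* (exact permutation p = 0.3). *Id4* to *Id2* differed most, at 0.0951, 0.141 and 0.0854 against 1.06, 1.49 and 1.41, a 12.5-fold difference (exact permutation p = 0.1). Per kb of exon, *Id4* stayed below *Id2* in all 6 libraries, at 1.95, 1.94 and 3.35 against 2.91, 2.06 and 3.74 CPM per kb in those labelled double knockout. Over the 9 ratios computed, none can pass an adjusted threshold of 0.05 at this size.

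**Figure D4:**
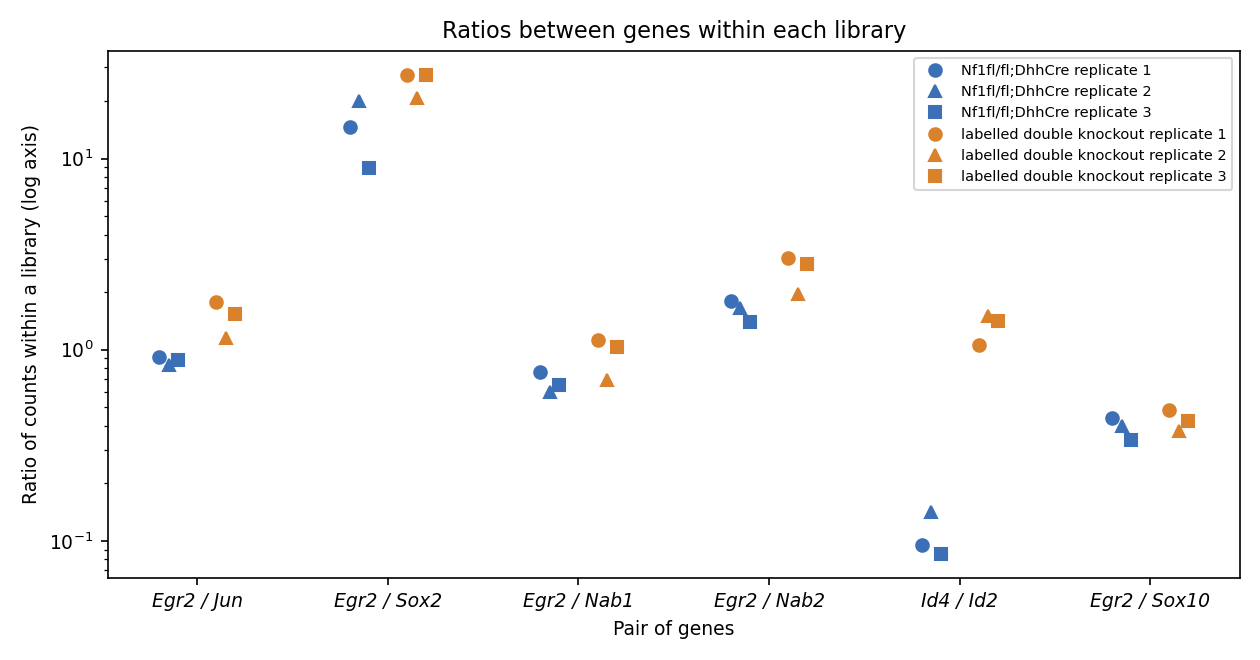
Ratio of the counts of 2 genes within each library on a log axis, not corrected for the lengths of the genes. Blue symbols are Nf1fl/fl;DhhCre and orange symbols the libraries labelled double knockout. The groups are apart for *Egr2* / *Jun*, *Egr2* / *Nab2*, *Egr2* / *Sox2* and *Id4* / *Id2* and overlap for *Egr2* / *Nab1* and *Egr2* / *Sox10*.

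Relative to the mean log2 CPM of the 6 SC genes outside the members, the same 5 members were without overlap, beside 41.2% of all genes on this scale (12.3% above and 28.9% below). The median difference of all genes was -0.24 here. The differences were -0.50 for *Nab1*, -0.70 for *Nab2*, -0.78 for *Jun*, -1.92 for *Id2* and 1.70 for *Id4* on the log2 scale (exact permutation p = 0.1 each). *Sox10*, at -0.16 (exact p = 0.4), and *Egr2*, at -0.03 (exact p = 0.9), turned to the other direction on this scale, and both lay above that median. *S100b*, 1 of the 6, itself rose, which raises the reference in the libraries labelled double knockout.

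Genes of the same families that are not members moved in 1 direction where they moved. Of 15 paralogs, 10 were tested, 5 fell and none rose, with a median log2 fold change of -0.94. Over all genes tested, 8.22% fell and 11.1% rose. *Sox9* (-1.66, adjusted p = 0.0106) and *Sox8* (-1.12, adjusted p = 0.0335), SOXE factors like *Sox10*, fell, as did *Sox5* (-0.80, adjusted p = 0.0234, all from limma-voom). *Sox9* was at 33.6, 39.9 and 43.6 CPM in Nf1fl/fl;DhhCre, against 10.4, 9.95 and 17.2 CPM in those labelled double knockout. *Egr1* (-1.20, adjusted p = 0.0134) and *Egr3* (-1.07, adjusted p = 0.0332, both from limma-voom), inducible EGR genes, also fell. *Egr1* was at 219, 141 and 155 CPM against 72.1, 62.9 and 85.6 CPM, well apart. *Sox8* was named after its value was seen, to complete the 5. *Sox9* and *Egr1* passed in each of the 6 leave-one-out fits, *Sox5* and *Sox8* in 1 and *Egr3* in 2, so that 2 to 4 paralogs fell there. These genes are also active in other cells of the tissue, and the macrophage and fibroblast markers fell in the same libraries.

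The genes that EGR2 and SOX10 are known to switch on in myelinating SCs were mostly higher. This list was drawn up with earlier results of these data known. It holds *Pmp22* and *Mbp*, which the study had reported as up-regulated in the same comparison. Of 26, all tested, 17 rose, none fell and 9 did not pass, with a median log2 fold change of 1.12. Over all genes tested, 11.1% rose and 8.22% fell. The number that rose was 11 without Nf1fl/fl;DhhCre replicate 1, and 14 to 18 without any other library, with 1 gene that fell without Nf1fl/fl;DhhCre replicate 2. In 19 of the 26 every library labelled double knockout lay above every Nf1fl/fl;DhhCre library, beside 21.8% of all genes tested. *Drp2*, a scaffold protein of the SC membrane, was at 287, 293 and 345 CPM in Nf1fl/fl;DhhCre and at 1332, 1103 and 1168 CPM in the other group (log2 fold change 1.96, SE 0.13, limma-voom adjusted p = 0.00374). *Ugt8a*, which makes the myelin lipid galactosylceramide, rose by 2.22 (SE 0.13, limma-voom adjusted p = 0.00374). *Cldn19*, a tight junction protein of myelin, rose by 1.51, and *Prx*, periaxin, the partner of DRP2, by 1.49. The neuron markers (21 of 22) rose in the same libraries, and the macrophage (10 of 12) and fibroblast markers (6 of 9) fell, and their part in these counts was not tested.

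Genes that depend on JUN in repair SCs went both ways. Of 20, 18 were tested, 7 fell, 4 rose and 7 did not pass, with a median log2 fold change of -0.75. Over all genes tested, 8.22% fell and 11.1% rose. *Cxcl14* (-2.85, adjusted p = 0.00596), *Gfap* (-1.94, adjusted p = 0.00835) and *Runx2* (-1.46, adjusted p = 0.00764, all from limma-voom) fell, the first a chemokine and *Gfap* a filament protein of nonmyelinating SCs. *Cxcl14* was at 29.8, 27.9 and 29.6 CPM in Nf1fl/fl;DhhCre, against 3.19, 4.36 and 4.49 CPM in those labelled double knockout. *Cxcl14*, *Gfap* and *Runx2* passed in each leave-one-out fit. The 4 that rose were *Uchl1* (1.93), *Gap43* (1.61), *Ngfr* (1.36) and *Cdh2* (1.05). *Uchl1* is itself on the sensory neuron list, and *Gap43* and *Ngfr* are known to be expressed by DRG neurons. Without Nf1fl/fl;DhhCre replicate 1 none of the 4 passed, and 4 genes of the list fell. The neuron markers moved with the 4 genes that rose. The macrophage markers (10 of 12) and fibroblast markers (6 of 9) fell in the same libraries, and the part of these cells was not tested.

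Immediate-early genes, the class of rapidly induced genes that *Jun* belongs to, showed no increase past the test. Of 17, 16 were tested. Beside 8.22% of all genes tested that fell, 4 of the 16 did. These were *Btg2* (-1.46), *Fosl2* (-1.45), *Egr1* and *Klf6* (-0.47), and the median of the list was -0.95. Between 2, without Nf1fl/fl;DhhCre replicate 1, and 5, without replicate 1 labelled double knockout, fell when 1 library was left out. The macrophage markers (10 of 12) and fibroblast markers (6 of 9) fell in the same libraries, and their part was not tested. In 11 of the 16 every library labelled double knockout was below every Nf1fl/fl;DhhCre library, beside 20.5% of all genes tested.

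Most other regulators of SC myelination did not pass the test. Among those that passed, positive regulators lay on both sides, and more of the genes listed as blockers rose than fell. A place on either list does not show that a gene acts that way in this tissue. Of 27 other positive regulators tested, 2 rose, 3 fell and 22 did not pass, with a median log2 fold change of -0.09. These calls are near the share over all genes tested, 19.3% (11.1% higher and 8.22% lower). *Adam22* (1.46), which encodes an axonal receptor, and *Ppp3r1* (0.54), a calcineurin subunit, rose. *Lgi4* (-0.70), the SC ligand of ADAM22, *Nfkb1* (-0.76) and *Wwtr1* (-0.56), the Hippo effector TAZ, fell. *Lgi4* was at 190, 184 and 199 CPM in Nf1fl/fl;DhhCre, against 143, 118 and 97.0 CPM in those labelled double knockout. Of 22 other genes listed as blockers, 6 rose, 1 fell and 15 did not pass, with a median of 0.12, beside the same 11.1% higher and 8.22% lower. *Hes1* (-1.28, adjusted p = 0.0135 from limma-voom), a Notch target, was the 1 that fell, at 14.7, 14 and 13.02 CPM against 5.58, 4.77 and 6.67 CPM. Those that rose included *Nrg1* (1.99), *Dusp15* (1.85), *Hey2* (1.55) and *Mapk3* (0.97). *Nrg1* is on the list for its soluble form, while the form on axons is known to promote myelination, and counts per gene do not separate them. *Hey2*, like *Hes1*, is a Notch target, so that genes of the Notch pathway lay on both sides. *Nrg1* (49.4, 54.8 and 92.2 CPM), *Mapk3* (232, 248 and 389 CPM) and *Adam22* (133, 134 and 236 CPM) were highest in replicate 3 labelled double knockout, as the summed sensory neuron markers were (7630, 8697 and 16186 CPM), and the part of those cells was not tested. None of the positive regulators passed without Nf1fl/fl;DhhCre replicate 1 or 3, and 2 of the blockers rose without the former.

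**Figure D5:**
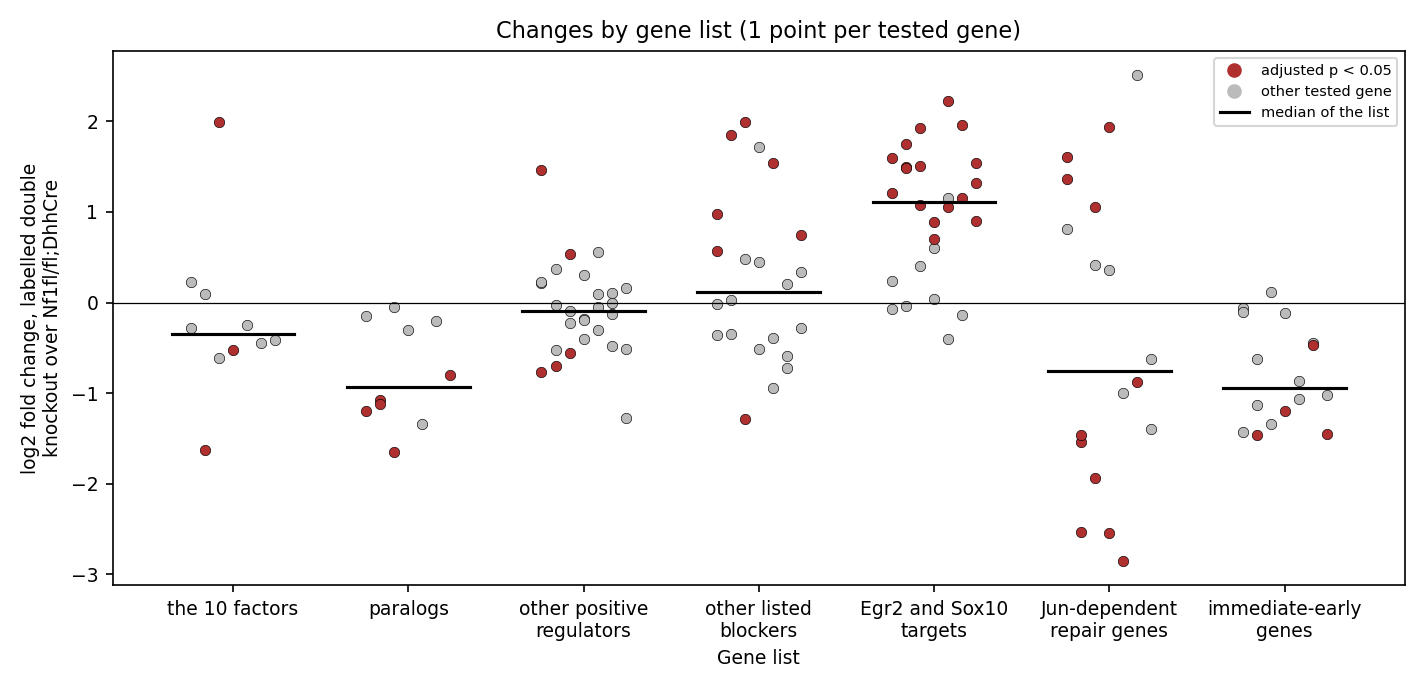
Log2 fold change, libraries labelled double knockout over Nf1fl/fl;DhhCre, of each tested gene in 7 lists, 1 point per gene and spread sideways for view, red where adjusted p from limma-voom was below 0.05, with the median of each list as a black line. The medians are -0.35 for the 10 members, -0.94 for their paralogs, 1.12 for the EGR2 and SOX10 targets, -0.75 for the JUN-dependent genes and -0.95 for the immediate-early genes.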

How the data were processed

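The authors amplified RNA with the NuGEN Ovation kit, made Nextera XT libraries, aligned paired-end reads to mm10 with TopHat and deposited raw counts per gene from featureCounts. The annotation, strandedness and handling of reads with several alignments are not given in the sources used here. The genes and gene lists were chosen with earlier results of these data known.

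Low genes were removed by filterByExpr with the groups given. It kept genes with about 10 counts, scaled by library size, in at least 3 libraries and 15 in total. TMM factors were 0.9502 to 1.039, and the counts were fitted with limma-voom by genotype in R 4.3.3 (edgeR 4.0.16, limma 3.58.1). P-values were adjusted by Benjamini-Hochberg over all genes tested. CPM used the TMM factors, and the prior count for log2 CPM was 0.5. All members were named, with at most 4 genes per direction of each list by adjusted p, the 2 most abundant genes of the marker lists given and the 3 nearest profiles to *Sox10* and *Egr2* among genes with average log2 CPM of at least 3. Some genes that meet this rule are left unnamed. Positions and exon lengths came from GENCODE M21. Titles and deposited data name different mice of 1 genotype for some libraries, and 1 library labelled double knockout (replicate 2 or 3) came from another run. Alternatives were DESeq2 1.42.0, its size factors, the quasi-likelihood test of edgeR, library size only, other filters, sample quality weights and leaving out each library. The steps were tested on simulated data. Figures used matplotlib 3.10.9 in Python 3.11.15.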

Additional observations from a re-analysis of the deposited data

How the results depend on the processing

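With all 6 libraries, *Jun*, *Id2* and *Id4* passed under each of the 7 other settings, and *Nab2* joined them under DESeq2 and sample quality weights. DESeq2 called 4574 genes in all against 3017. Leaving out 1 library moved the members called to between 0 and 4, the members that were DEGs to between 0 and 2, all genes called to between 383 (without Nf1fl/fl;DhhCre replicate 1) and 3006, and DEGs to between 362 and 2285. Without replicate 2 of both groups, a setting added after the data were seen, 1 member, *Id2*, passed and was a DEG. *Jun* (adjusted p = 0.105) and *Id4* (adjusted p = 0.0509, both from limma-voom) did not pass there. Library size only moved the median of all genes from 0.0153 to -0.0615, and the share of calls that were higher was 50.7% against 57.3%. When 1 library was left out, that share ran from 50.4% (without Nf1fl/fl;DhhCre replicate 1) to 69.1% (without replicate 3 labelled double knockout).

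Relative to the SC reference, *Sox10* (-0.16) and *Egr2* (-0.0298) turned direction, and *Egr2* was at 0.0519 with the general SC list. *Pou3f1* ranged from -1.04 to 0.0154, the latter without Nf1fl/fl;DhhCre replicate 3. Other genes near 0 also turned. Library size only gave *Sap130* -0.0042, *Mtpn* -0.0171 and *Wbp11* -0.0012, and quality weights gave *Mtpn* -0.0072. *Sap130* ranged from -0.0048 to 0.184, *Cdh19* from -0.307 to 0.0522 (0.13 without both replicates 2), *Nf1* from -0.181 to 0.0433 and *Myh1* from -2.38 to 3.16 when 1 library was left out, and *Myh1* was at -0.67 in edgeR. The cause was not tested.

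Of 30 list genes examined this way, all kept their direction when 1 library was left out and 13 passed in each such fit. These genes were picked because they passed with all 6 libraries. The fits reuse the same libraries, so the kept direction is no separate support. The lowest counts in a library were 26 for *Pou3f1*, 27 for *Id4*, 44 for *Sox2* and 61 for *Id2*, which limits their precision. No paired analysis was possible because the replicate numbers were given here in the order of the samples and do not pair mice.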
